A study of Mus musculus with 6 samples.

Results

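Satellite glia are the flat cells that wrap the body of each sensory neuron in a dorsal root ganglion. The 9 genes described here, Fabp7, Apoe, Glul, Slc1a3, Gja1, Ednrb, Fbxo2, Lgi4 and Cdh19, were taken by symbol as markers of these cells from the 55809 gene symbols of the count tables. All 9 passed the low-count filter that left 20146 genes to test, and their raw counts per library ran from 894 to 137970. The question put to them was whether adult offspring of mothers stressed in late pregnancy carry a different level of satellite glia transcripts in their ganglia.

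Offspring of stressed and of unstressed dams, all C57BL6J mice, were compared at 8 weeks of age, and the label of every library gives dorsal root ganglion as the tissue. The prenatal stress (PS) group was born to dams restrained in tubes under a strong lamp, in 3 daily sessions of 30 min, from embryonic day 13 to 18 by the protocol label (the series design gives slightly later days). Dams of the control (CT) group were left undisturbed. Each group had 3 libraries and each library was a pool of 3 mice, so 9 mice stand behind each group by the series design, whereas the protocol label gives 3. No gene was altered in either group. The labels say that males and females were used and give neither the sex nor the litter of a pool, so a p-value here measures the spread between pools. Libraries held 51.7 to 77.6 M gene counts in PS pools and 65 to 87.4 M in CT pools. All levels below are CPM, gene counts scaled to the size of the library with TMM factors. Neuronal markers summed to at least 12000 CPM in every pool.

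Satellite glia take up and recycle the transmitters that neurons release, buffer potassium, and are joined to each other by gap junctions. They share their origin in the neural crest with Schwann cells and share many genes with the astrocytes of the brain and spinal cord. Several of the 9 genes are therefore not found in satellite glia alone: Apoe is also a gene of macrophages and astrocytes, Lgi4 and Cdh19 are also genes of Schwann cells, Glul, Slc1a3 and Gja1 are classical astrocyte genes, and Fbxo2 is known from neurons.

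The upstream sequences of the member with the largest difference (Fabp7) and of the most abundant member (Apoe) are shown because these are the control regions of the transcripts that the results turn on. They come from the RefSeq promoter table on build GRCm38.p6, in which 7 of the 9 genes matched. Both read 5′ to 3′ on the strand of the gene. The Fabp7 stretch is chr10:57784673-57784880 on the plus strand, 208 bases that end where the gene begins in GENCODE M21, and the Apoe stretch is chr7:19699189-19699438 on the minus strand, 250 bases. Capitals mark matches on either strand to ACAANG and to TGGGAA, the core letters bound by the Notch partner Rbpj. ACAANG, with any base at N, is looser than the core bound by SOX factors such as the glial factor Sox10. A match to it need not be a SOX site.
Fabp7: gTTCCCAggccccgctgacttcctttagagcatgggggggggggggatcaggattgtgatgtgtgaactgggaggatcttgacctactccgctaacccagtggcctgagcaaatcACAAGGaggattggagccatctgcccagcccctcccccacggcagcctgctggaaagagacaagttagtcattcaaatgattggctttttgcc
Apoe: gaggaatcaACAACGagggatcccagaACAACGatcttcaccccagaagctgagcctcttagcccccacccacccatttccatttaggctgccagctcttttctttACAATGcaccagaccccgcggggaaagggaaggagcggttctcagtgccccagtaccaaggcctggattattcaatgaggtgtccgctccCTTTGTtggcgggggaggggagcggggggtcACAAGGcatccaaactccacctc
Within 250 bases before the RefSeq start, Fabp7 had 1 match to ACAANG and 1 to TGGGAA, and Apoe had 5 matches to ACAANG at its first listed start. Of the 9 listed promoters of the 7 genes, 3 held ACAANG and 1 held TGGGAA. Among all 32851 promoters of the table the shares were 36.3% and 21.6%. These matches describe letters only.

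Compared per kilobase of annotated exon, Apoe, the lipid carrier of the nervous system, was by far the most abundant marker, at a mean of 714 CPM per kb over the 6 pools. Glul followed at 139, Fbxo2 at 111 and Fabp7 at 102 CPM per kb. A middle group held Lgi4 at 33.6, Cdh19 at 29.3 and Ednrb at 24.2 CPM per kb. Gja1 and Slc1a3 were low, at 3.13 and 2.39 CPM per kb. Fabp7 (67.3 to 134) overlapped with Fbxo2 (104 to 123) and reached the lowest Glul pool (134). Pools of neighbours also overlapped within the last group, where Gja1 ran from 2.3 to 3.81 and Slc1a3 from 2.03 to 2.73 CPM per kb, and likewise between Lgi4 and Cdh19 and between Cdh19 and Ednrb. Fabp7 and Fbxo2 changed places between the groups: Fabp7 averaged 83 and Fbxo2 114 CPM per kb in PS pools, against 121 for Fabp7 and 107 for Fbxo2 in CT pools. On GRCm38, Fabp7 lies at chr10:57784881-57788450 (plus strand), Apoe at chr7:19696109-19699188 (minus), Glul at chr1:153899944-153909723 (plus) and Slc1a3 at chr15:8634124-8710764 (minus). Gja1 lies at chr10:56377330-56402513 (plus), Ednrb at chr14:103814625-103844402 (minus), Fbxo2 at chr4:148160621-148166424 (plus), Lgi4 at chr7:31059342-31070935 (plus) and Cdh19 at chr1:110888326-110977584 (minus). All 9 are annotated as protein coding, and counts cover their exons. The exon lengths are those of all exons annotated in GENCODE M21, from 1250 bases for Fabp7 to 10257 bases for Gja1.

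**Figure D1:**
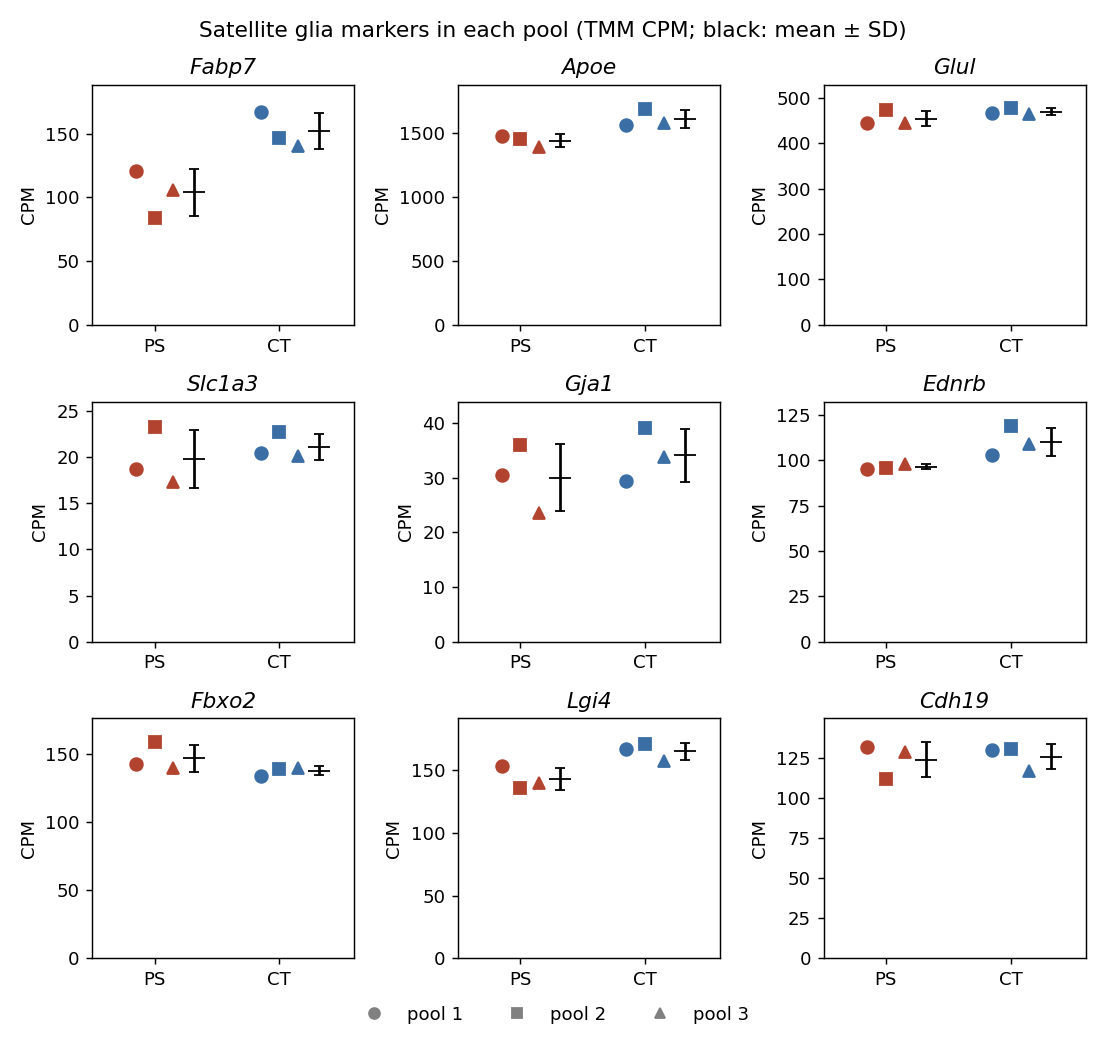
Level of each satellite glia marker in every pool, in CPM on axes that start at 0, with 3 prenatal stress (PS) pools on the left and 3 control (CT) pools on the right of each panel. Marker shapes give the pool number, black bars the mean ± SD over 3 pools. The PS pools of Fabp7, Apoe, Ednrb and Lgi4 lie below all CT pools, and those of the other 5 genes overlap with CT.

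Fabp7, the brain-type fatty acid binding protein that carries fatty acids inside glial cells, showed the largest difference of the 9 genes. It stood at 121, 84.2 and 106 CPM in PS pools 1 to 3, against 167, 147 and 140 CPM in CT pools 1 to 3. Each PS pool was below each CT pool, and the PS mean was 68.4% of the CT mean (104 ± 18.3 and 152 ± 14 CPM, SD, n = 3 pools each). The log2 fold change was -0.55 ± 0.13 (SE; 95% interval -0.85 to -0.25). Its unadjusted p was 0.00325 in edgeR's quasi-likelihood test, and with Benjamini-Hochberg adjustment over all 20146 genes its adjusted p was 0.273. With the replicate number as a block and a correction for GC content and length, the adjusted p was 0.0437 at a log2 fold change of -0.55. The labels do not say that pools of one number are paired. Fabp7 passed in 2 alternative fits, this one and DESeq2's Wald test (adjusted p = 0.0447). Over 18 other ways of running the comparison the log2 fold change stayed between -0.67 and -0.42, and the adjusted p ranged from 0.0437 to 0.835. In pooled tissue, fewer satellite glia and less of a transcript in each cell cannot be told apart.

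Apoe, which binds lipid for transport between cells, stood at 1480, 1450 and 1390 CPM in PS pools 1 to 3, against 1560, 1690 and 1580 CPM in CT pools 1 to 3. The groups did not overlap, though the nearest pools, PS pool 1 and CT pool 1, lay close together. The log2 fold change was -0.16 ± 0.05 (95% interval -0.26 to -0.05, unadjusted p = 0.00889, edgeR adjusted p = 0.327). The 11 other genes of lipid transport had a median log2 fold change of -0.02, and 0 of them passed over all genes in edgeR.

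Ednrb is the B-type endothelin receptor and the receptor of the list through which endothelin peptides act on glia. It stood at 95.4, 95.6 and 97.9 CPM in PS pools 1 to 3, against 103, 119 and 109 CPM in CT pools 1 to 3. The 3 PS pools were nearly identical, and the spread lay in the CT group (SD 1.4 CPM in PS pools and 7.9 CPM in CT pools). The log2 fold change was -0.20 ± 0.05 (95% interval -0.32 to -0.07, unadjusted p = 0.00648, edgeR adjusted p = 0.298). The ligand genes were low. Edn1 averaged 1.21 ± 0.151 CPM in PS pools and 1.53 ± 0.226 CPM in CT pools, and Edn2 0.239 ± 0.0574 and 0.444 ± 0.166 CPM (SD, n = 3 pools each). Edn3 had a positive value, at 2.97 ± 1.5 CPM in PS pools and 2.34 ± 0.223 CPM in CT pools (log2 fold change 0.34, 95% interval -0.41 to 1.1). Of the 6 other endothelin genes, Edn2 had an unadjusted p under 0.05 (0.043) and 0 passed over all genes, with a list median of -0.04.

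Lgi4 encodes a secreted protein of peripheral glia that binds Adam22 and is required for normal myelination of peripheral nerve. Its levels were 153, 136 and 140 CPM in PS pools 1 to 3, against 167, 171 and 157 CPM in CT pools 1 to 3. The groups did not overlap, with a log2 fold change of -0.20 ± 0.05 (95% interval -0.33 to -0.08, unadjusted p = 0.00535, edgeR adjusted p = 0.29). In GENCODE M21, 44.9% of the exon bases of Lgi4 are also exon bases of Fxyd3 on the opposite strand, and the strand setting of the counting is not given in the sources used here. Fxyd3 itself stood at 10.4, 9.92 and 9.2 CPM in PS pools and 15, 11.3 and 10.8 CPM in CT pools (log2 fold change -0.33 ± 0.13, edgeR adjusted p = 0.427). The share of Lgi4 counts that this overlap touches was not tested. Of 6 LGI and ADAM genes of the same ligand and receptor families (median 0.04), 0 had an unadjusted p under 0.05, with Adam22 at 287 ± 18 CPM in PS pools and 280 ± 11.7 CPM in CT pools (log2 fold change 0.04, 95% interval -0.09 to 0.16).

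The genes of transmitter clearance and coupling overlapped between the groups. Glul, the glutamine synthetase that turns glutamate taken up by glia into glutamine, stood at 445, 472 and 444 CPM in PS pools 1 to 3, against 466, 478 and 464 CPM in CT pools 1 to 3. Its log2 fold change was -0.05 ± 0.04 (95% interval -0.13 to 0.03, edgeR adjusted p = 0.651), the narrowest interval among the 9 genes. Glul also matches 3 processed pseudogene transcripts at 90.5% to 96.8% identity, of which Glns-ps1 had 14 to 31 counts per library.
Slc1a3, the glutamate transporter GLAST, stood at 18.7, 23.3 and 17.3 CPM in PS pools 1 to 3, against 20.4, 22.7 and 20.1 CPM in CT pools 1 to 3 (log2 fold change -0.09 ± 0.11, 95% interval -0.35 to 0.17, edgeR adjusted p = 0.814). Pool 2 was the highest of the 3 in each group. The log2 fold change was -0.01 without PS pool 3, -0.04 without CT pool 2 and -0.23 without PS pool 2 (unadjusted p = 0.0185, edgeR adjusted p = 0.351).
Gja1 encodes connexin 43, a gap junction channel of glia. It stood at 30.4, 35.9 and 23.6 CPM in PS pools 1 to 3, against 29.4, 39.1 and 33.8 CPM in CT pools 1 to 3 (log2 fold change -0.19 ± 0.16, 95% interval -0.56 to 0.19, edgeR adjusted p = 0.71). The log2 fold change was -0.05 without PS pool 3, -0.08 without CT pool 2 and -0.34 without PS pool 2. PS pool 3 was the lowest and CT pool 2 the highest, and the interval is wide enough to hold a log2 fold change as large as that of Fabp7.

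Fbxo2, the F-box subunit of a ubiquitin ligase that recognises sugar-bearing proteins, was the single member with a positive value. It stood at 143, 159 and 140 CPM in PS pools 1 to 3, against 134, 139 and 140 CPM in CT pools 1 to 3 (log2 fold change 0.10 ± 0.05, 95% interval -0.02 to 0.21, edgeR adjusted p = 0.523). PS pool 2 stood above the other 5 pools, which lay between 134 and 143 CPM. Its ligase partner Skp1 stood at 952 ± 44.4 CPM in PS pools and 1050 ± 47 CPM in CT pools (SD, n = 3 each; log2 fold change -0.14 ± 0.05, edgeR adjusted p = 0.378).
Cdh19, a cadherin of crest-derived glia, stood at 132, 112 and 129 CPM in PS pools 1 to 3, against 130, 131 and 117 CPM in CT pools 1 to 3. Its log2 fold change was -0.02 ± 0.07 (95% interval -0.19 to 0.15, edgeR adjusted p = 0.952), and its sign turned to 0.08 without both pools numbered 2.

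**Figure D2:**
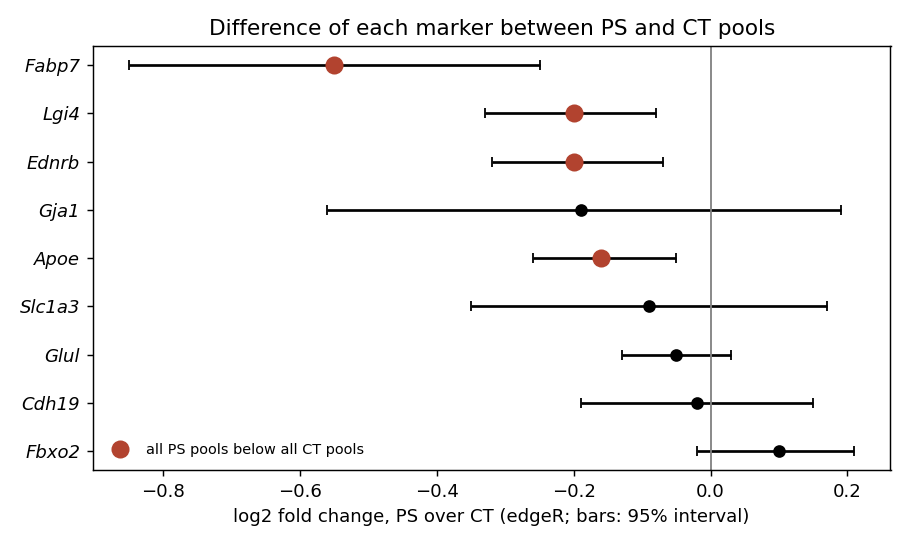
Log2 fold change of each marker, PS over CT, with its 95% interval from the edgeR fit, ordered from the most negative at the top to Fbxo2 at 0.10 at the bottom. Red points mark the 4 genes whose PS pools all lie below all CT pools, and the Fabp7 interval of -0.85 to -0.25 lies farthest from 0.

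Taken over the list, 8 of 9 markers had a negative log2 fold change, as did 47.7% of all tested genes. No marker passed at an adjusted p under 0.05 in edgeR, where 26 of 20146 genes (0.129%) passed, 0.0447% lower and 0.0844% higher. Limma voom also gave 0, and DESeq2's Wald test gave 4, which were Fabp7 (adjusted p = 0.0447), Apoe (0.0158), Ednrb (0.0298) and Lgi4 (0.0166), among 330 genes that it called. At an unadjusted p under 0.05, 4 of 9 markers were lower and 0 higher, against 5.11% and 6.01% of all tested genes. Without overlap between the groups, 4 of 9 lay below CT and 0 above, against 8.76% and 9.33% of all tested genes. The median log2 fold change was -0.16 for the markers and 0.01 for all tested genes. It was -0.05 without PS pool 3 and -0.08 without CT pool 2, while the count of 4 lower markers was 4 in those fits as well. The markers were chosen with earlier results of these data known, so these counts describe the list.

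The pools differed in their content of central nervous system transcripts, and 3 of the markers were highest in the same pools of each group. Mog, which is made by oligodendrocytes, stood at 0.504, 9.92 and 1.36 CPM in PS pools 1 to 3, against 0.259, 7.56 and 5.99 CPM in CT pools 1 to 3. The 7 oligodendrocyte markers summed to 89.2, 231 and 102 CPM in PS pools and 85.8, 189 and 188 CPM in CT pools. Within that list Aspa ran otherwise, at 49.3, 43.8 and 43.5 CPM in PS pools and 54.1, 52 and 50.4 CPM in CT pools. Its log2 fold change was -0.20 ± 0.06 (unadjusted p = 0.00982, edgeR adjusted p = 0.336). The 8 astrocyte markers, none of them a member, summed to 62, 178 and 72.6 CPM in PS pools and 59.9, 184 and 123 CPM in CT pools, with a median log2 fold change of -0.26. PS pool 2 and CT pool 2 were thus the high pools of each group on the astrocyte list, and Slc1a3, Gja1 and Glul were also highest there. Gjb6 of the astrocyte list was instead highest in pool 1 of each group (9.19 CPM in PS and 8.76 CPM in CT). Fabp7 showed another order, with its lowest value in PS pool 2 and its highest in CT pool 1.
With the level of the oligodendrocyte list as a covariate, Fabp7 had a log2 fold change of -0.59 (edgeR adjusted p = 0.0593). Apoe stood at -0.15, Ednrb at -0.19 and Lgi4 at -0.21. These 4 markers were lower at an unadjusted p under 0.05 in that edgeR fit, and Fbxo2 was higher (0.1, unadjusted p = 0.0305). Over all genes, 2224 of 20146 had an unadjusted p under 0.05 in either direction. With the 3 pools of highest oligodendrocyte sums left out, PS pools 1 and 3 against CT pool 1 alone, Fabp7 stood at -0.56 (edgeR adjusted p = 0.835), Lgi4 at -0.18, Apoe at -0.12 and Ednrb at -0.09. In that fit 1 marker, Fabp7, had an unadjusted p under 0.05, and the single CT pool is assumed to vary like the PS pools. Both fits were added after the pools had been seen.

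**Figure D3:**
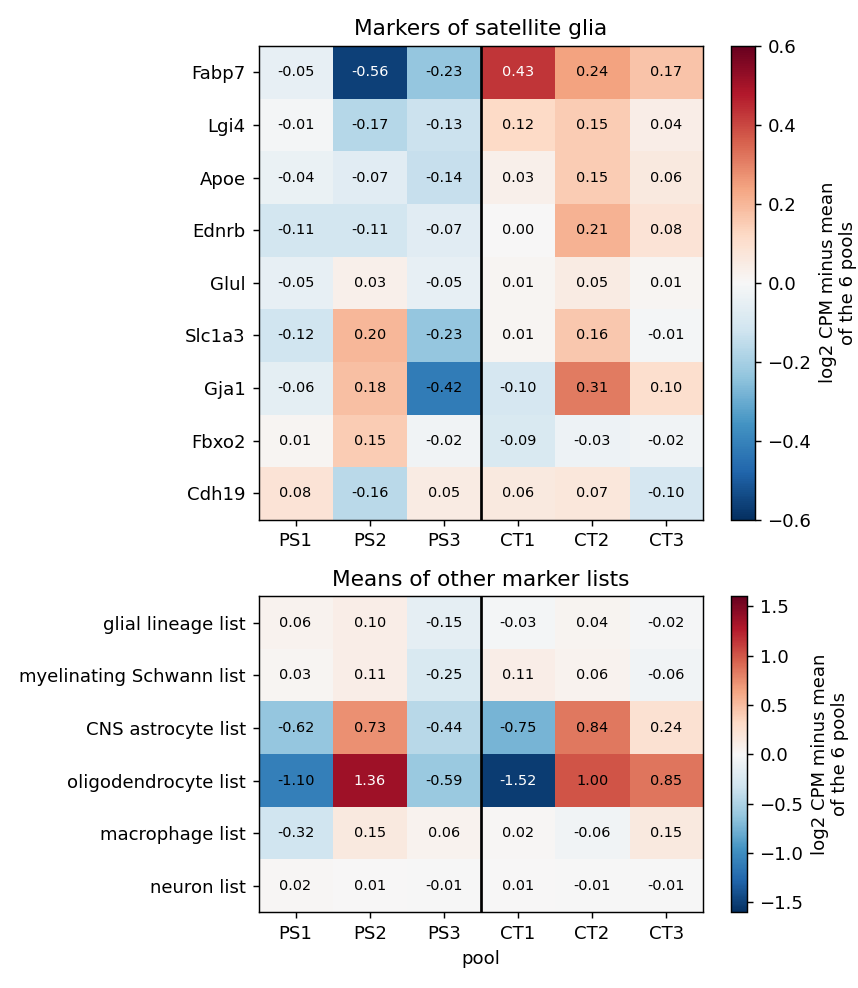
Log2 CPM minus the mean of the 6 pools for each satellite glia marker (top) and averaged over 6 other marker lists (bottom, with a wider colour scale), PS pools left and CT pools right of the black line. Slc1a3 and Gja1 are highest in the pools numbered 2, where the CNS astrocyte list reaches 0.73 (PS) and 0.84 (CT), while Fabp7 is lowest in PS pool 2 at -0.56.

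Other cell types of the ganglion were measured beside the markers. The 10 neuronal markers had a median log2 fold change of 0.02 and summed to between 12000 and 12500 CPM in PS pools and in CT pools alike. Of these 10, 1 was lower and 1 higher at an unadjusted p under 0.05. Tubb3, the neuronal beta-tubulin, stood at 1890, 1960 and 1830 CPM in PS pools and 2040, 2250 and 2140 CPM in CT pools, without overlap, and its log2 fold change of -0.18 ± 0.05 was about that of Apoe, Ednrb and Lgi4 (unadjusted p = 0.00604, edgeR adjusted p = 0.297). Nefl, the light neurofilament, averaged 4240 ± 159 CPM in PS pools and 3890 ± 163 CPM in CT pools (0.12 ± 0.05, unadjusted p = 0.0356, edgeR adjusted p = 0.428). The 12 macrophage markers, whose cells also express Apoe, had a median of -0.06, with sums of 126 to 199 CPM in PS pools and 159 to 186 CPM in CT pools. In pool order these sums were 126, 187 and 199 CPM in PS pools and 160, 159 and 186 CPM in CT pools. Lyz2 alone gave 48.1 to 98.7 CPM of a pool's sum. Endothelial and mural markers had a median of -0.03 (10 tested, 0 with an unadjusted p under 0.05) and fibroblast markers a median of 0.06 (7 tested, 1 higher at an unadjusted p under 0.05). None of these lists had a member that passed over all genes, and their part in the marker levels was not tested.

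Schwann cells and satellite glia share a set of lineage genes, so each marker was also set against them within a pool. The 6 lineage genes, among them Sox10, Erbb3 and Sox2, had a median log2 fold change of -0.06. Among them Foxd3, a crest transcription factor, averaged 7.78 ± 1.38 CPM in PS pools and 6.23 ± 0.48 CPM in CT pools (0.32 ± 0.13, unadjusted p = 0.0448, edgeR adjusted p = 0.445), and S100b 579 ± 21.4 CPM in PS pools and 611 ± 7.67 CPM in CT pools, without overlap (-0.08 ± 0.04, edgeR adjusted p = 0.472). The 13 myelinating Schwann cell genes also had a median of -0.06. Sox10, the transcription factor that specifies peripheral glia, averaged 86.6 ± 11.3 CPM in PS pools and 90.1 ± 2.24 CPM in CT pools (SD, n = 3 each). Relative to the mean of the lineage genes on the log2 scale, Fabp7 stood at -0.11, -0.66 and -0.08 in PS pools 1 to 3, against 0.46, 0.21 and 0.19 in CT pools 1 to 3. On that scale the groups remained apart for Fabp7, Apoe and Lgi4, and they overlapped for Ednrb. Relative to the myelinating Schwann cell genes, Fabp7 alone remained apart, at -0.08, -0.68 and 0.03 in PS pools and 0.32, 0.18 and 0.23 in CT pools. PS pool 3, the pool of lowest mean marker level (-0.14), was also lowest in the lineage list (-0.15) and the Schwann cell list (-0.25). Ncmap, a protein of noncompact myelin, was the single gene of the myelinating list with an unadjusted p under 0.05, at 66.1 ± 5.45 CPM in PS pools and 77.6 ± 4.18 CPM in CT pools (log2 fold change -0.23 ± 0.07, edgeR adjusted p = 0.337). The list for nonmyelinating (Remak) Schwann cells held 3 genes, and which cells of the ganglion hold their transcripts was not tested. Of these, Gfra3, a receptor subunit for a neurotrophic factor, stood at 37.9, 41.8 and 37.6 CPM in PS pools and 43.9, 46 and 44.6 CPM in CT pools, without overlap (-0.20 ± 0.05, unadjusted p = 0.00466, edgeR adjusted p = 0.286). Scn7a, a sodium channel family member, averaged 591 ± 64.2 CPM in PS pools and 523 ± 6.58 CPM in CT pools (0.18 ± 0.07, unadjusted p = 0.0461, edgeR adjusted p = 0.446).

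The markers did not vary as 1 unit across the pools. Over the 36 pairs of markers and 6 pools, the median Pearson r of log2 CPM was 0.4, with 27 pairs positive, and the range was -0.89 to 0.94. After removal of each group's mean the median was 0.19, with 23 pairs positive. An exact two-sided permutation test gave 8 pairs an unadjusted p under 0.05 and 0 pairs an adjusted p under 0.05 (Benjamini-Hochberg over 36 pairs; smallest adjusted p 0.117). All pairs share the depth and the tissue content of the same libraries.
Fabp7 and Lgi4 had r = 0.94 (exact permutation p = 0.00556, adjusted p = 0.117; Spearman rho 0.94, exact permutation p = 0.0167), 0.95 without the 2 pools of most extreme Fabp7 and 0.78 after removal of group means. Glul and Slc1a3, the enzyme and the transporter of glutamate clearance, had r = 0.94 (exact permutation p = 0.0125, adjusted p = 0.117; rho 0.94, exact permutation p = 0.0167), 0.86 without the 2 pools of most extreme Glul and 0.98 after removal of group means. Slc1a3 and Gja1 had r = 0.90 (exact permutation p = 0.0153, adjusted p = 0.117; rho 0.77, exact permutation p = 0.103), and 0.81 without the 2 pools of most extreme Slc1a3. Fabp7 and Slc1a3, in contrast, had r = -0.05 (exact permutation p = 0.924, adjusted p = 0.924; rho 0.09, exact permutation p = 0.919), 0.95 without the 2 pools of most extreme Fabp7 and -0.71 after removal of group means, so that its sign depends on which pools enter.
Fabp7 and Fbxo2 ran in opposite directions, at r = -0.89 (exact permutation p = 0.0111, adjusted p = 0.117; rho -0.83, exact permutation p = 0.0583), which was -0.40 without the 2 pools of most extreme Fabp7 and -0.88 after removal of group means. Each marker's r with the mean of the other 8 was highest for Apoe (0.99), Lgi4 (0.86) and Ednrb (0.82), and lowest for Fbxo2 (-0.47) and Cdh19 (0.06). All of these are values over 6 pools, or over fewer where the 2 pools most extreme in a gene were left out.

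**Figure D4:**
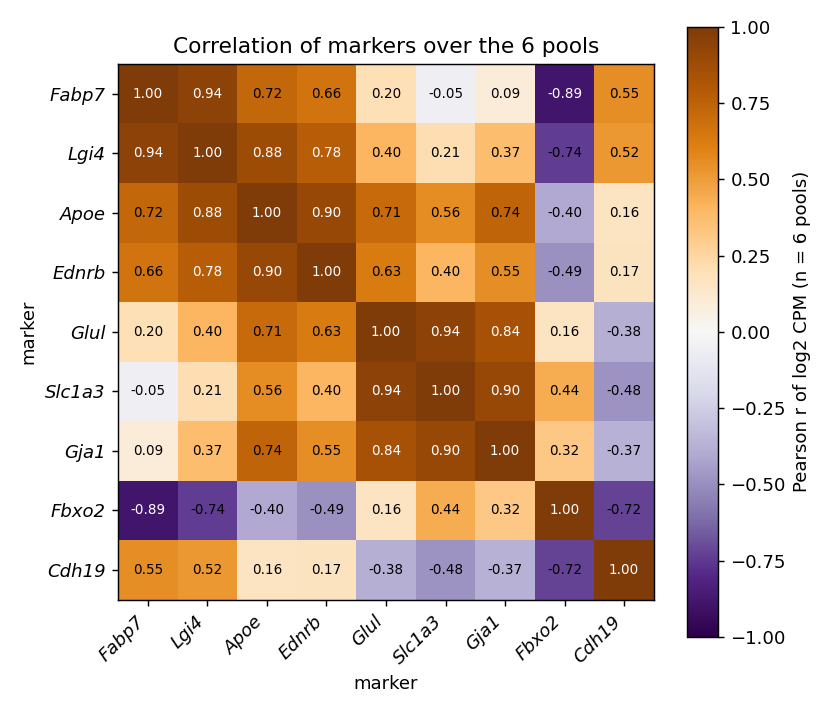
Pearson r of log2 CPM over the 6 pools for each of the 36 pairs of markers, with the value printed in each cell. Fabp7, Lgi4, Apoe and Ednrb form 1 block of positive values (0.66 to 0.94) and Glul, Slc1a3 and Gja1 another (0.84 to 0.94), while the row of Fbxo2 holds the most negative value, -0.89. The first 4 are the genes whose PS pools all lie below CT, and after removal of group means r was -0.08 for Fabp7 and Apoe, -0.25 for Fabp7 and Ednrb and 0.17 for Ednrb and Lgi4.

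Among the tested genes of at least 10 CPM, 8 genes were named as most like the mean profile of the markers over the 6 pools. They were Bid (Pearson r = 0.995), Utp4 (0.993), Inka2 (0.985), Olfml2b (0.983), Lgr5 (0.981), Fbln2 (0.981), Cnmd (0.977) and Abhd14a (0.975), out of 10108 candidates. Their log2 fold changes ran from -0.29 for Lgr5, a receptor that enhances Wnt signalling, to -0.08 for Bid, a protein that promotes cell death. With so many candidates and 6 pools these r values are a description. The mean profile itself was lower in every PS pool (-0.14 to -0.04) than in every CT pool (0.04 to 0.14). The negative fold changes of genes chosen to follow it therefore come from the choice.

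The wider pathways of the markers held 166 distinct genes, all of them tested, in lists that include the cell type lists above. Of these, 14 were lower and 6 higher at an unadjusted p under 0.05, and 0 passed over all genes in edgeR. These were 8.43% and 3.61% of the 166, against 5.11% and 6.01% of all tested genes, and 12% against 11.1% in either direction. Fatty acid binding proteins other than Fabp7 had negative values for 4 of 4 genes (median -0.16), against 47.7% of all tested genes. The sign was not settled for Fabp4 (log2 fold change -0.12, interval -1.14 to 0.89) or Pmp2 (-0.27, interval -1.14 to 0.61). Both overlapped between the groups, and Pmp2 was low, at 0.246 CPM in PS pools and 0.306 CPM in CT pools. The interval of Fabp3 also held 0 (-0.41 to 0.05), and that of Fabp5 did not (-0.22 to -0.09). Fabp5, the epidermal type, stood at 155, 154 and 154 CPM in PS pools and 175, 168 and 171 CPM in CT pools. Its groups did not overlap and its spread was small (log2 fold change -0.15 ± 0.03, unadjusted p = 0.00102, edgeR adjusted p = 0.208). Fabp3 averaged 43.3 ± 0.898 CPM in PS pools and 48.9 ± 7.54 CPM in CT pools (-0.18 ± 0.10, edgeR adjusted p = 0.545).

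Genes raised in reactive glia had negative values for 5 of 7 members (median -0.15), and 3 of the 7 were lower at an unadjusted p under 0.05, against 47.7% negative and 5.11% lower among all tested genes. Serpina3n, a secreted protease inhibitor, came closest of all companion genes to passing, at 191, 179 and 194 CPM in PS pools and 244, 228 and 236 CPM in CT pools (log2 fold change -0.33 ± 0.04, unadjusted p = 9.08e-05, edgeR adjusted p = 0.0605). Its adjusted p was 0.0353 with a robust spread, 0.00834 without the low-count filter, 0.0459 with the replicate block and GC and length correction, 0.0398 with the oligodendrocyte covariate and 3.57e-09 in DESeq2's Wald test. It was 0.0537 with the block alone, 0.0938 with the GC and length correction alone, 0.111 to 0.326 with any 1 pool left out, 0.436 without both pools numbered 2 and 0.835 without the 3 pools of highest oligodendrocyte sums. Timp1, an inhibitor of matrix metalloproteinases, averaged 3.6 ± 0.716 CPM in PS pools and 6 ± 1.36 CPM in CT pools (-0.74 ± 0.21, edgeR adjusted p = 0.327). The intermediate filament Vim averaged 475 ± 32.6 CPM in PS pools and 525 ± 17.2 CPM in CT pools (-0.15 ± 0.05, edgeR adjusted p = 0.403). Gfap, the classical filament of reactive glia, varied widely between pools and was highest in PS pool 2 and CT pool 3, at 36.3 ± 42.3 CPM in PS pools and 25.7 ± 15.8 CPM in CT pools (0.50 ± 0.85, edgeR adjusted p = 0.874).

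Genes of potassium buffering and other astroglial functions had negative values for 8 of 10 members (median -0.09), with 0 at an unadjusted p under 0.05. With the replicate block 3 of the 10 were lower and 0 higher at an unadjusted p under 0.05, and 0 passed over all genes. Of all 20146 tested genes, 2428 had an unadjusted p under 0.05 in either direction in that edgeR fit, against 2241 without the block. Kcnj10, the potassium channel Kir4.1 of satellite glia, stood at 76.6, 103 and 73.8 CPM in PS pools and 88.1, 129 and 102 CPM in CT pools (log2 fold change -0.33 ± 0.17, edgeR adjusted p = 0.517). It was lower in PS than in CT for each pool number, and with the replicate block its unadjusted p was 0.000772 and its edgeR adjusted p 0.162. That block rests on a pairing which the labels do not state. Like Gja1, Kcnj10 was highest in the pools numbered 2. Ttyh1 averaged 98.1 ± 10.7 CPM in PS pools and 111 ± 13.9 CPM in CT pools (-0.17 ± 0.11, edgeR adjusted p = 0.584; 0.379 with the replicate block).

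The 10 other genes of the glutamate cycle had a median of -0.02, and Got1, a transaminase, was the single one with an unadjusted p under 0.05 (223 ± 3.64 CPM in PS pools and 235 ± 4.9 CPM in CT pools, log2 fold change -0.07 ± 0.03, edgeR adjusted p = 0.446). Slc1a2, the other glial glutamate transporter and itself one of the 8 astrocyte markers, stood at 11.3, 76.5 and 20.8 CPM in PS pools and 10.8, 85.1 and 47.3 CPM in CT pools. The 11 other gap junction genes had a median of 0.07, with 1 higher and 2 lower at an unadjusted p under 0.05. Of all tested genes 6.01% were higher and 5.11% lower at that threshold. Gja4, 1 of the 2 lower genes, averaged 1.87 ± 0.178 CPM in PS pools and 2.37 ± 0.277 CPM in CT pools (-0.34 ± 0.14, edgeR adjusted p = 0.446). Tjp1, the scaffold protein ZO-1 that binds connexin 43, stood at 86.2, 81.5 and 83.9 CPM in PS pools and 77, 75.3 and 77.8 CPM in CT pools (0.13 ± 0.03, edgeR adjusted p = 0.298). Panx1, a channel related to gap junction proteins, averaged 53.5 ± 0.897 CPM in PS pools and 57.1 ± 1.41 CPM in CT pools (-0.09 ± 0.03, edgeR adjusted p = 0.386).
Notch and ErbB genes had a median of -0.03 with 0 of 9 at an unadjusted p under 0.05, and the effector Rbpj averaged 38 ± 1.23 CPM in PS pools and 38.2 ± 0.941 CPM in CT pools. Type II cadherins related to Cdh19 had a median of 0.02. Cdh11, a cadherin of mesenchyme, averaged 153 ± 2.9 CPM in PS pools and 142 ± 6.22 CPM in CT pools (0.11 ± 0.04, edgeR adjusted p = 0.397).

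**Figure D5:**
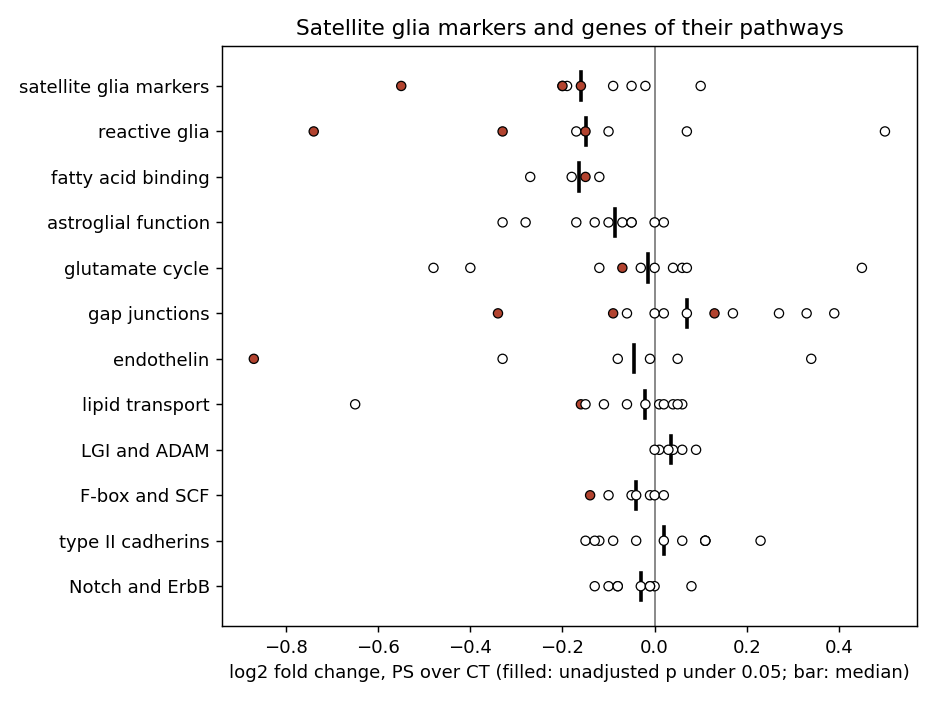
Log2 fold change, PS over CT, of every gene in the satellite glia list and in the 11 lists of related pathways, 1 point per gene, filled at an unadjusted p under 0.05 and with a black bar at the list median. The medians of the satellite glia (-0.16), fatty acid binding (-0.16) and reactive glia (-0.15) lists lie farthest below 0, and that of the gap junction list lies above it at 0.07.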

How the data were processed

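Poly-A RNA from pooled ganglia was sequenced as stranded paired-end libraries with an input of 3000 ng (RNA integrity 8.2 to 8.6), per the labels' protocols. The authors deposited raw read counts per gene symbol, 1 table per pool. FastQC, STAR 2.4 and HTSeq 0.9.1 and the builds GRCm39 and mm10 are named in the submitters' processing notes; the sources used here give neither the build that was counted nor the strand setting. Closing lines of each table that name no gene held 15.3% to 16.2% of its reads and were left out.

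The test was run in edgeR 4.0.16 (R 4.3.3): filterByExpr (minimum count 10), TMM factors, quasi-likelihood F test of PS against CT, and Benjamini-Hochberg adjustment over 20146 genes with a threshold of 0.05. The SE of a log2 fold change is its size over the square root of F, and intervals are 95% intervals from it. Log2 CPM used a prior count of 2. The fitting code was tested on simulated counts. DESeq2 1.42.0 and limma 3.58.1 were alternatives. Counting error is small at these depths, so the number of pools limits precision.

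The 9 genes and the companion lists were chosen with earlier results of these data known. Named genes were the 9 members, the 2 genes of smallest p in each companion list (some are not reported here) and the 8 genes of most similar profile. Outside that rule are Mog, Fxyd3, Glns-ps1, Adam22, Vim, Gfap, Slc1a2, Sox10 and Rbpj. Edn3, Gja4, Gjb6, Fabp4, Pmp2 and Lyz2 are outside it as well. All of these were named after their values were seen. GENCODE M21 held 50664 of the 55809 symbols and was used for exon lengths, GC content (found for 96.6% of the tested genes), overlaps and, with minimap2 2.31-r1302, similar transcripts of at least 90% identity over 200 bases.

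Every 2 libraries differed by more than sampling noise (chi-square per degree of freedom 11.07 to 37.23 over 15 pairs). The labels number the pools 1 to 3 in both groups without saying why. Across genes, the PS and CT pools that carry one number deviated from their groups together, at correlations of 0.34, 0.22 and 0.13, so the numbers were treated as pairing the pools in an alternative fit with a replicate block. Correlations between pools of unlike number were not computed, so the fits with this block rest on a pairing taken from these data.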

Additional observations from a re-analysis of the deposited data

How the results depend on the processing

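The count of genes that passed in the whole table was 26 in edgeR, 330 in DESeq2's Wald test, 49 without the low-count filter and 2 to 14 with any 1 pool left out. It was 1 without both pools numbered 2 and, in edgeR, 0 without the 3 pools of highest oligodendrocyte sums, where 1110 genes had an unadjusted p under 0.05. With the replicate block 22 genes passed, Fabp7 stood at -0.56 (edgeR adjusted p = 0.117), and the block alone changed the call of none of the 9 markers. With the block plus GC and length correction, 1 marker passed (Fabp7) and 33 companion genes had an unadjusted p under 0.05, against 20 without them. Over all 20146 tested genes, 2717 had an unadjusted p under 0.05 in that fit, against 2241 in edgeR without block or correction. DESeq2's Wald test called 4 markers. The 4 markers lower at an unadjusted p under 0.05 became 1 without the 3 pools of highest oligodendrocyte sums and stayed between 3 and 6 in the other fits. Without PS pool 2 they were 6, with Glul and Slc1a3 added, and 2536 of 20612 tested genes had an unadjusted p under 0.05 in either direction. The median log2 fold change of the markers ranged from -0.19 to -0.05 with any 1 pool left out. Signs turned for Cdh19 without both pools numbered 2 (0.08), without the 3 pools (0.01), without PS pool 2 (0.05) and without CT pool 1 or 2 (0.01 each), within a range of -0.07 to 0.05 with any 1 pool left out. They also turned for Cldn11 (-0.22 without both pools numbered 2, -0.09 without the 3 pools, and -0.26 to 0.29 with any 1 pool left out) and Slc7a10 (1.26 without the 3 pools, and -2.15 to 0.28 with any 1 left out). Without the 3 pools they turned for Drp2 (-0.02) and Dpt (-0.15), and with any 1 pool left out Rgs5 ran from -0.01 to 0.12. None of these genes passed in edgeR with all pools. The fits without the 3 pools and with the oligodendrocyte covariate were chosen after seeing the data. The causes were not tested.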
